A study of Mus musculus with 4 samples.

Results

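The oligonucleotides described here are the array probes that encode the linker of C2H2 zinc finger proteins. They were chosen by sequence alone: each 60-base probe was translated in its 3 forward frames, and a probe was kept where a frame without a stop held the 5 linker residues, which are threonine, glycine, glutamate, lysine or arginine, and proline in this order. This gave 21 of 42006 probes. The rule used no measured value, but it was set with earlier results of these data known. The probes were read on 4 Agilent arrays of 1 slide with 2 colours each, with mouse footpad RNA in the Cy3 channel and a common reference in the Cy5 channel. The groups were 2 wild-type (WT) footpad samples, labelled male, and 2 Tabby footpad samples, labelled mixed sex and as a gene knock out, all of strain C57BL/6 at E17.5. Tabby mice lack ectodysplasin (Eda), a ligand needed for skin appendages such as sweat glands. The reference pooled the RNA of 11 mouse lines grown in culture, of embryonic, kidney, liver, lung, lymphoid, mammary, muscle, skin and testis origin. Whether the samples of a genotype are separate animals or pools is not in the labels, so a p-value here covers only sample-to-sample spread, part of which may be technical. All arrays came from 1 slide, and sex and array position follow the genotype labels, so these cannot be told apart from genotype.

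A C2H2 zinc finger is a small fold in which a pair of cysteines and a pair of histidines hold a zinc ion. Most such proteins carry a row of fingers, which can bind DNA. The linker joins the last histidine of a finger to the next finger. It is among the most conserved stretches of these proteins, and its threonine is phosphorylated in mitosis, when many zinc finger proteins leave the DNA. Mammalian C2H2 proteins include the large family of KRAB zinc finger repressors, which act through the corepressor Trim28, and the Klf, Sp, Gli and Egr factors. In skin, Klf4 is known for its part in the barrier and the Gli proteins for carrying Hedgehog signals. The files do not pair a probe with a gene, so none of the probes below is assigned to a gene, a family or a chromosome. The footpad label could not be checked against marker genes for the same reason.

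The probes that differed most between footpad and reference are shown first, because the contrast between the RNAs turns on them. The linker bases are in capitals and each sequence is written as the array prints it, 5′ to 3′. The first 3 were at least 2-fold brighter in footpad and the last 2 at least 2-fold brighter in the reference.
Z00025631-1: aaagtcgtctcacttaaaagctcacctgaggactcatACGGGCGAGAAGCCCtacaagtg
Z00024284-1: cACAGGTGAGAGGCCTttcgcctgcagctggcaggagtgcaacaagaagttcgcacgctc
Z00030886-1: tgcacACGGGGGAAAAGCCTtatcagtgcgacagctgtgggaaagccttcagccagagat
Z00073990-1: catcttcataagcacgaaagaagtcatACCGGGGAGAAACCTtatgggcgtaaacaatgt
Z00075749-1: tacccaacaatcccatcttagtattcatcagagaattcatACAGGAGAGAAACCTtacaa

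A second set is shown because its members are related in sequence and yet differed in detection. Each of these 6 probes matches another of the set at 44 or more bases when aligned without gaps, a limit set after the sequences were compared. Over the 15 pairs of the set the match ran from 37 to 51 bases, so the set is a chain of likeness, and its first 2 probes are the only pair to match at 92.7% of the overlap.
Z00055646-1: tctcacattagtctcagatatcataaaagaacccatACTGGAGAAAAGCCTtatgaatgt
Z00060976-1: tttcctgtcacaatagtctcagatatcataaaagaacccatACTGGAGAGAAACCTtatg
Z00059930-1: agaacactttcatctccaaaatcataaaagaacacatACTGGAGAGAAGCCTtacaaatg
Z00060872-1: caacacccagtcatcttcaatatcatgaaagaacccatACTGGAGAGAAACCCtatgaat
Z00060956-1: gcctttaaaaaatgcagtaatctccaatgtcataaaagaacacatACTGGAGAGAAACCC
Z00068721-1: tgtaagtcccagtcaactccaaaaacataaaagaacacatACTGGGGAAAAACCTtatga

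The last set holds the 4 probes with the smallest unadjusted p between WT and Tabby in either direction, none of which passed the test.
Z00025747-1: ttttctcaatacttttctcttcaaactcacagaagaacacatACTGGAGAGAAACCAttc
Z00072504-1: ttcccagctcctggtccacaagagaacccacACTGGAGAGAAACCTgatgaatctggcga
Z00036183-1: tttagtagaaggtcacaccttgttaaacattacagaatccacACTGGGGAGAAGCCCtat
Z00076281-1: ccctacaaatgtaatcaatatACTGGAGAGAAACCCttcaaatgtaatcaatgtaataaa

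The linker was spelled in 16 different ways among the 21 probes. The most frequent spelling, ACTGGAGAGAAACCC, was present in 4 probes. The threonine codon was ACT in 14 of 21 probes, the glycine codon GGA in 14 and the glutamate codon GAG in 14. The fourth linker residue was lysine in 19 probes and arginine in 2, Z00024284-1 and Z00026252-1. In both of these the linker opens the probe, with no complete codon before it:
Z00026252-1: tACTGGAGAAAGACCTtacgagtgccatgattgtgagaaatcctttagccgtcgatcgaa
The letters ACTGGAGAGAA were found as printed in 19 of the 42006 probes (0.0452%), 8 of them linker probes, and on the other strand in 1 probe, which was no linker probe. The other 11 probes with these letters did not hold the linker in a frame without a stop.

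Residues that the rule did not use also followed the pattern of a zinc finger. A histidine stood directly before the linker in 18 of 21 probes. A further histidine lay 4 residues upstream of it in 16 of 21, the spacing of the closing histidine pair of a finger. A tyrosine followed the linker in 14 probes and a phenylalanine in 4. In 15 of 21 probes the linker lay between a histidine and a tyrosine or phenylalanine. Among the exceptions shown above, Z00072504-1 has neither tyrosine nor phenylalanine after the linker, and Z00076281-1 has no histidine before it. The linker opens Z00024284-1 and Z00026252-1 and ends Z00060956-1, so these probes could not show the flanking residue on that side. Z00030886-1 has 1 residue before the linker, too few to show the further histidine. The peptide lay on the strand that the array prints in these 21 probes, and 1 probe of the array held the linker in an open frame of the other strand. In 1 further probe it lay only in a forward frame that contains a stop. The GC content of the linker probes ran from 30% to 60% with a median of 40%, against a median of 43.3% over all 42006 probes.

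Most linker probes gave a signal in both RNAs. In footpad, 17 of 21 (81.0%) were well above background on all 4 arrays by the scanner software's flag, against 65.6% of all probes. The other 4 were well above background on no footpad array, so the 4 arrays sorted the 21 probes in the same way. In the reference, 17 of 21 were well above background on all 4 arrays, against 68.6% of all probes. The more lenient positive-and-significant flag gave 19 of 21 in footpad and 20 of 21 in the reference, against 78.3% and 81% of all probes. A probe is called detected where it was well above background. Detection in both RNAs on all 4 arrays was found for 16 linker probes (76.2%), against 61.2% of all probes. Z00060976-1 was detected in the reference on all 4 arrays and in footpad on none, as were 4.38% of all probes. Z00068721-1 and Z00075619-1 were detected in neither RNA on any array, as were 20.1% of all probes. The remaining Z00072979-1 was detected in footpad on all 4 arrays and in the reference on 2, and Z00055646-1 in the reference on 3 and in footpad on none. Z00072979-1 gave 48.5 to 54.7 footpad units and 10.7 to 24.1 reference units. Z00075619-1 gave 6.31 to 10.12 footpad units and 3.48 to 8.48 reference units, so both of its channels were near background. No linker probe was detected in footpad on all arrays and in the reference on none, a pattern of 2.41% of all probes. Over the whole array, 28241 to 29063 probes per array were well above background in footpad and 29449 to 30852 in the reference. No spot of a linker probe was saturated or carried a feature outlier flag. A background outlier flag was carried by 1 spot, that of Z00072979-1 on the array of WT replicate 4.

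Footpad and reference were compared at the 16 linker probes detected in both RNAs on all arrays. Values are log2 ratios of footpad over reference after background correction with an offset of 50 units and loess within each array. The offset shrinks ratios of dim probes, so the scanner software's own folds, which carry no offset, are also given for the probes described. Their normalization differs too. Over all tested probes the median log2 ratio was -0.11 in the scanner's log ratio and 0.04 in the values used here. Footpad was in Cy3 on every array, so a dye effect and a difference between the RNAs cannot be told apart. The reference was the same pool on each array. The test thus measures the spread between arrays, that between footpad samples included, and not between reference pools. In limma's test of the mean ratio against 0, adjusted over 25672 probes, 8 of the 16 were higher in footpad, 7 were lower and 1 was not called. Over all tested probes 48.1% were higher and 44% lower. At least 2-fold higher in footpad were 3 of 16 (18.8%), against a background of 17.9%, and at least 2-fold lower were 2 of 16 (12.5%), against 11.7%. Both shares of the linker probes lie near those of the array as a whole. The median log2 ratio was 0.11 in the 16 linker probes, with quartiles of -0.24 and 0.63, and 0.04 over all tested probes, with quartiles of -0.50 and 0.69. The linker probes ran from -1.47 to 2.27. The SD of a linker probe's ratio over the 4 arrays was between 0.0251 and 0.105 (n = 4).

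Z00025631-1 had the highest ratio of footpad over reference among the linker probes. Footpad gave 8877 and 8168 units for WT, with 7678 and 8259 for Tabby, while the reference gave 1891, 1852, 1797 and 1856 units on the same arrays. Footpad exceeded the reference on all 4 arrays, and the WT and Tabby signals overlapped. The log2 ratio was 2.27 (SE 0.0302, 95% confidence interval 2.20 to 2.35, n = 4, limma adjusted p = 7.61e-10), a 4.83-fold difference, and the scanner's signals gave 4.45-fold.

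Z00024284-1, which carries the arginine form of the linker, was next. Footpad gave 2897 and 2568 units for WT, with 2615 and 2597 for Tabby, against 987.5, 966.3, 956.4 and 928.8 units in the reference. Both groups lay well above the reference and the Tabby values fell between the WT values. The log2 ratio was 1.54 (SE 0.0323, n = 4, limma adjusted p = 6.74e-09), or 2.91-fold, and 2.78-fold from the scanner's signals. The other probe with the arginine form, Z00026252-1, gave 889.8 and 830.3 footpad units for WT, with 859.9 and 764.8 for Tabby, against 472.0 to 503.6 units in the reference. Its log2 ratio was 0.79 (SE 0.0266, n = 4, limma adjusted p = 8.14e-08), a 1.73-fold difference, and 1.70-fold from the scanner's signals. The 2 arginine probes were both higher in footpad, as were 6 of the 14 tested lysine probes and 48.1% of all tested probes. With 2 probes of the arginine form, no test of the difference between the forms was made.

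Z00030886-1 also passed 2-fold and is named because the count is small, after its values were seen. Footpad gave 307.6 and 283.6 units for WT, with 293.2 and 298.9 for Tabby, against 87.2 to 91.4 units in the reference. The signals were dim, and the fold depended on the offset. The log2 ratio was 1.06 (SE 0.0284, 95% confidence interval 0.989 to 1.13, n = 4, limma adjusted p = 2.45e-08), or 2.08-fold, against 3.29-fold from the scanner's signals. With background as measured its log2 ratio was 0.89, which is under 2-fold.

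The 2 probes at least 2-fold lower in footpad were lower in both genotypes. Z00073990-1 gave 163.6 and 173.5 footpad units for WT, with 157.7 and 170.8 for Tabby, against 781.4, 790.1, 798.2 and 823.5 units in the reference. The reference was brighter on all 4 arrays, and the footpad signals of WT and Tabby overlapped. The log2 ratio was -1.47 (SE 0.0297, 95% confidence interval -1.55 to -1.40, n = 4, limma adjusted p = 5.59e-09), so the reference was 2.78-fold brighter, and 4.80-fold brighter in the scanner's signals. Z00075749-1 gave 796.6 and 776.6 footpad units for WT, with 703.4 and 772.8 for Tabby, against 2307 to 2480 units in the reference. Both WT signals lay just above both Tabby signals, while the ratios to the reference overlapped. Its log2 ratio was -1.32 (SE 0.0262, n = 4, limma adjusted p = 5.26e-09), so the reference was 2.49-fold brighter, and 3.14-fold brighter in the scanner's signals.

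The other 11 tested probes lay within 2-fold on this scale. On the higher side were Z00073978-1 at a log2 ratio of 0.48 and Z00036554-1 at 0.26. On the lower side were Z00025747-1 at -0.24, Z00076281-1 at -0.22 and Z00036183-1 at -0.09. All 5 were called at an adjusted p under 0.05 by limma, the last of them at 0.0227. The scanner's signals put the reference 1.82-fold above footpad at Z00025747-1, 1.69-fold at Z00076281-1 and 1.29-fold at Z00036183-1, against 1.18-fold, 1.17-fold and 1.07-fold on the offset scale. They put footpad 1.28-fold above the reference at Z00073978-1 and 1.09-fold at Z00036554-1. With the offset alone removed, the log2 ratio was -0.55 at Z00025747-1, -0.49 at Z00076281-1 and -0.17 at Z00036183-1. In the scanner's log ratio these were -0.86, -0.76 and -0.36. The nearest to the limit below it on the higher side was Z00026252-1, and on the lower side Z00072504-1 at -0.58. Z00072504-1 gave 107.8 to 115.2 footpad units and 243.0 to 281.3 reference units, and the scanner's signals put the reference 2.39-fold above footpad. Z00060956-1, at 0.58 on the offset scale, was 2.17-fold higher in footpad in the scanner's signals. Z00046966-1 was the 1 tested probe that was not called. Footpad gave 2936 and 2809 units for WT, with 3118 and 2787 for Tabby, against 3185 to 3465 units in the reference. Its log2 ratio was -0.00097 (95% confidence interval -0.0625 to 0.0605, n = 4, limma adjusted p = 0.972). That ratio rests on the loess normalization, and the scanner's own log ratio put it at -0.20 (limma adjusted p = 0.00182).

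The 6 chained probes differed in detection and in the ratio of footpad to reference. The closest pair, Z00055646-1 and Z00060976-1, match at 51 of 55 overlapping bases. Z00060976-1 gave 12.8, 17.2, 9.41 and 4.58 footpad units, not well above background on any array, and 106.7 to 114.9 units in the reference. The mean log2 ratio on the offset scale was -0.70, so the reference was 1.63-fold brighter than footpad as measured. The single arrays ran from -0.78 to -0.58. The scanner's signals put the reference 11.1-fold above footpad, and both folds rest on footpad signals not well above background. Z00055646-1 gave 10.02, 4.98, 4.96 and 4.52 footpad units and 17.3 to 39.8 units in the reference, where it was detected on 3 of 4 arrays. Both members of the closest pair were not well above background in footpad and gave the higher scanner signal in the reference on each array. On the offset scale the log2 ratio of Z00055646-1 was 0.00553 on the array of Tabby replicate 3, where neither channel was well above background.

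The other 4 probes of the group fell into different classes. Z00068721-1 gave 14.8 to 19.96 footpad units and 13.4 to 16.2 reference units and was well above background in neither. Z00059930-1 gave 63.8 to 83.6 footpad units and 124.5 to 144.5 reference units, a log2 ratio of -0.26 ± 0.0842 (SD, n = 4), or 1.19-fold higher in the reference, and 1.69-fold from the scanner's signals. Z00060872-1 matches Z00068721-1 at 46 of 58 overlapping bases. It gave 546.8 and 512.3 footpad units for WT, with 476.2 and 553.0 for Tabby, and 483.7 to 524.4 units in the reference. It was detected in both RNAs on all arrays, at a log2 ratio of 0.22 ± 0.0604 (SD, n = 4). Z00060956-1 gave 165.8 and 164.5 footpad units for WT, with 127.7 and 182.6 for Tabby, against 67.2 to 80.6 reference units, at a log2 ratio of 0.58 ± 0.103 (SD, n = 4). By the well-above-background flag, 3 of the 6 probes of the group and 14 of the 15 linker probes outside it were detected in footpad on all arrays. Over all probes the share was 65.6%. The group held 3 of the 4 linker probes not detected in footpad. By the software's more lenient positive-and-significant flag, Z00068721-1 and Z00075619-1 passed in footpad on all 4 arrays, Z00060976-1 on 3 and Z00055646-1 on 1. Hybridisation of a transcript to more than 1 of these probes was not tested. Over all 21 linker probes, the closest other probe on the array matched at 31 to 51 of 60 bases, with a median of 41, and for 9 of them it was not a linker probe.

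No linker probe was called between WT and Tabby, the comparison through which the study sought targets of Eda. The 17 linker probes detected in footpad were tested with 28414 probes in all, and by limma 0 of 17 had an adjusted p under 0.05, higher or lower. The background was 0.0246%, or 7 of 28414 probes, so a count of 0 among 17 is near the background. At an unadjusted p under 0.05 there were 0 of 17 linker probes, against 4.79% of all tested probes, and the smallest unadjusted p was 0.0882. The estimated log2 changes, Tabby minus WT, ran from -0.11 to 0.12, with 4 probes above 0 and 13 below. Their median was -0.01, against 0.00389 over all tested probes. The WT and Tabby ratios did not overlap at 6 of the 17 probes (35.3%), against 31.9% of all tested probes. Each of the 17 confidence intervals of 95% lay within a 1.20-fold change on the offset scale, for the spread between these 4 arrays. All 17 were detected in footpad on the arrays of both genotypes, so none entered the test through 1 group. The limit depended on the values used: the widest interval reached 1.44-fold without the offset, 2.09-fold with backgrounds as measured, and 3.50-fold on the scanner's own log ratio, there at Z00072979-1.

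The 2 probes of smallest unadjusted p on the higher side in Tabby were Z00025747-1 and Z00072504-1. The log2 ratio of footpad over reference at Z00025747-1 was -0.28 and -0.32 in WT and -0.22 and -0.14 in Tabby. Both Tabby values lay above both WT values. The log2 change was 0.11 (SE 0.0569, 95% confidence interval -0.0226 to 0.251, limma adjusted p = 0.9995). The footpad signals behind it were 45.3 and 49.9 units for WT, with 45.8 and 60.3 for Tabby, and these overlapped. Z00072504-1 had log2 ratios of -0.64 and -0.63 in WT and -0.58 and -0.46 in Tabby, a change of 0.12 (SE 0.06, limma adjusted p = 0.9995).

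The 2 probes of smallest unadjusted p on the lower side in Tabby were Z00036183-1 and Z00076281-1. The log2 ratio at Z00036183-1 was -0.09 and 0.0147 in WT and -0.11 and -0.19 in Tabby. Both Tabby values lay below both WT values, and the change was -0.11 (SE 0.062, 95% confidence interval -0.261 to 0.0365, limma adjusted p = 0.9995). Footpad gave 231.3 and 247.4 units for WT, with 216.5 and 213.0 for Tabby. At Z00076281-1 the ratios were -0.24 and -0.13 in WT and -0.25 and -0.28 in Tabby, a change of -0.08 (limma adjusted p = 0.9995) that turned to 0.00885 in the footpad channel alone and to 0.019 with backgrounds as measured.

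The 5 probes with at least a 2-fold ratio between footpad and reference had WT and Tabby ratios that overlapped. Z00025631-1 had a mean log2 ratio of 2.30 ± 0.0783 in WT (SD, n = 2) and of 2.24 ± 0.0401 in Tabby (SD, n = 2). Z00024284-1 had 1.55 ± 0.106 in WT (SD, n = 2) and 1.54 ± 0.00317 in Tabby (SD, n = 2), and Z00030886-1 had 1.06 ± 0.0584 (SD, n = 2) and 1.05 ± 0.0409 (SD, n = 2). Z00073990-1 had -1.46 ± 0.0791 in WT (SD, n = 2) and -1.49 ± 0.028 in Tabby (SD, n = 2). Z00075749-1 had -1.32 ± 0.00973 (SD, n = 2) and -1.32 ± 0.0423 (SD, n = 2). The widest 95% confidence interval of the change among them ran from -0.167 to 0.149, at Z00024284-1.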

How the data were processed

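The members and lists were chosen with earlier results of these data known, and so was the replacement of outlying backgrounds. Per the labels, footpad RNA (Cy3) and reference RNA (Cy5) were amplified and hybridised without a dye swap. Per the file headers, Agilent Feature Extraction 9.5.1.1 gave the deposited intensity values (mean spot intensity, median local background) and a log10 ratio, Cy5 over Cy3. The authors' deposited table of log10 values, with a level per probe set in a way not given in the sources used here, served as an alternative.

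Spots with a background outlier flag (1988 to 2071 of 43451 per array, in either channel) took the array's median background. This was followed by normexp with an offset of 50, loess with control spots at weight 0, and limma 3.58.1 (R 4.3.3, lmFit and eBayes, 2 residual degrees of freedom). In simulated data with a common noise level for all probes, the mean WT against Tabby estimate was checked against the change put in. That check does not cover error rates or interval widths at dim probes. Benjamini-Hochberg adjustment ran over all tested probes, at 0.05. WT against Tabby used probes well above background in footpad on both arrays of 1 group or more. Footpad against reference used those detected in both channels on all 4 arrays. The number of arrays limits the precision.

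Named probes were, per direction, the 2 of smallest p (WT against Tabby) or of largest ratio past the threshold (footpad against reference), those detected in the reference alone, and the closest pair or group by sequence. The other members were named after their values were seen. Of all probe codes, 0 matched the gene table, so planned gene families, pathway genes, marker genes and gene-based names were not run.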

Additional observations from a re-analysis of the deposited data

How the results depend on the processing

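The 0 calls among linker probes between WT and Tabby stayed 0 under the alternatives that kept all 4 arrays, replicate block included. Over all tested probes, 0 of 28414 were called with backgrounds as measured, without the offset and on the scanner's log ratio. A count of 0 among linker probes was therefore fixed there. Median centring called 112 of 28414 probes, and the authors' values called 1 of 17760, with 11 linker probes tested. Among these alternatives, the footpad channel alone gave 1 linker probe at an unadjusted p under 0.05, Z00073978-1 (log2 change -0.19, limma adjusted p = 0.974), and the others 0. The deviations of WT and Tabby arrays of the same replicate number had a correlation of -0.0166. Whether arrays of the same number shared a preparation was not tested. The change at Z00076281-1 turned to 0.019 with backgrounds as measured and to 0.00885 in the footpad channel alone. Against the reference, the counts of 3 higher and 2 lower became 2 to 4 and 2 to 3 under the alternatives that kept all arrays. The shares over all tested probes moved too, to between 13.5% and 21.9% higher and between 10.7% and 21.8% lower. Z00046966-1 turned to 0.000905 without background subtraction and ranged from -0.0127 to 0.0108 with an array left out, above 0 without WT replicate 3 or Tabby replicate 4. It gained a call under median centring (-0.39) and in the scanner's log ratio (-0.20). Z00036183-1 lost its call with backgrounds as measured (-0.06) and without WT replicate 3 (-0.07) or Tabby replicate 4 (-0.07). Z00060872-1 lost its call under median centring (0.10) and the scanner's log ratio (0.07). The cause was not tested. The median of the linker probes was -0.05 under median centring and -0.06 in the scanner's log ratio, where that of all tested probes moved to -0.21 and -0.11. It exceeded that of all probes by 0.0695 in the values reported and by 0.0493 to 0.162 under the other scalings. With the linker required to lie between a histidine and a tyrosine or phenylalanine, 11 of 15 probes were detected in footpad on all arrays. This compares with 17 of 21 without the requirement and 65.6% of all probes. Each linker probe that the requirement left out was detected in footpad on all arrays. Under the requirement the median fell to -0.00097, which is below that of all probes (difference -0.0411). The direction of the median against all probes thus depends on the member rule. On the scanner's log ratio the interval of Z00072979-1 was the widest. This probe gave 48.5 to 54.7 footpad units and 10.7 to 24.1 reference units. Its spot on the array of WT replicate 4 carried a background outlier flag, and that background was replaced in the values reported. Why its interval was the widest was not tested.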

Other observations

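Among the linker probes tested against the reference, those rich in G and C had the higher ratios of footpad over reference, a split made after the values were seen. The 5 probes of at least 50% GC had a median log2 ratio of 1.06, and the 11 below 50% had a median of -0.09. Over all tested probes the medians were -0.02 at 7456 probes of at least 50% GC and 0.07 at 18216 below it. The correlation of GC content with the log2 ratio was r = 0.502 across the 16 linker probes and r = -0.0168 across all 25672, given as a description, since probes share the arrays and the dyes and are not independent. The 5 GC-rich linker probes were Z00024284-1 (60% GC), Z00073978-1 (58.3%), Z00030886-1 (55%), Z00072504-1 (53.3%) and Z00025631-1 (50%). Of these, 4 were higher in footpad and Z00072504-1 was lower. Over all tested probes of any GC content, 48.1% were higher and 44% lower.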
